A study of Mus musculus with 4 samples.

Results

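The 9 genes described here encode core parts of the TGF-beta and activin pathway. They are the ligand genes Tgfb1, Tgfb3, Inhba and Inhbb, the receptor genes Tgfbr1 and Tgfbr2, the signal transducer Smad3, and the inhibitors Smad7 and Tgif1. They were taken by gene name from a table of 29011 mouse genes, and all 9 had a row. The table came from RNA-seq of whole small intestine at postnatal day 8, with 2 control samples and 2 Lats1/2 KO samples. The design text describes the controls as carrying floxed alleles of Lats1 and Lats2 and no Cre, whereas their genotype label reads VilCre-; Lats1/2-/-. The knockouts are labelled VilCre+; Lats1/2-/-, so floxed Lats1 and Lats2 were common to both groups and Cre was the stated difference. The Villin promoter drives Cre in intestinal epithelium, while the tissue was taken whole, with its muscle, connective tissue, vessels and blood cells.

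TGF-beta ligands are secreted in a latent form held by binding proteins and are released outside the cell, in part by integrins. The active ligand binds the type II receptor TGFBR2, which recruits and phosphorylates the type I receptor TGFBR1. That kinase phosphorylates SMAD2 and SMAD3, which enter the nucleus with SMAD4. Activins, dimers of the inhibin beta chains, signal to the same SMADs through activin receptors. In the intestine the pathway is known for restraining epithelial growth and for acting on immune and connective tissue cells. The comparison asks how its genes differed when Lats1 and Lats2, the Hippo kinases that restrain YAP and TAZ, were targeted in epithelium.

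The libraries held 25135964 to 32361940 reads. Lats1 had 2316 and 2560 normalized counts in the controls and 751 and 661 in the knockouts, lower in both libraries labelled as knockouts. Lats2 had 273 and 287 in the controls and 295 and 254 in the knockouts, where the groups overlapped; gene totals do not show reads from floxed exons separately. A normalized count is a read count divided by a size factor of its library. Whether the samples were separate animals is not stated in the labels, so the p-values reflect only how much these libraries spread, which may be technical. In bulk tissue, fewer cells of a type and less RNA per cell cannot be told apart.

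Of the 9 genes, 1 passed the test and rose in the Lats1/2 KO samples, namely Tgfbr2. None fell, and 8 did not pass. The test was limma on log2(normalized count + 1) across 16415 genes, called at an adjusted p below 0.05. It called 27.5% of all tested genes, 15.2% as higher and 12.3% as lower in the knockouts, so 1 call in 9 was not above this background. The median log2 change of the 9 genes was 0.03, against -0.0015 over all tested genes. Their median absolute log2 change was 0.228, against 0.281 over all tested genes.

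**Figure D1:**
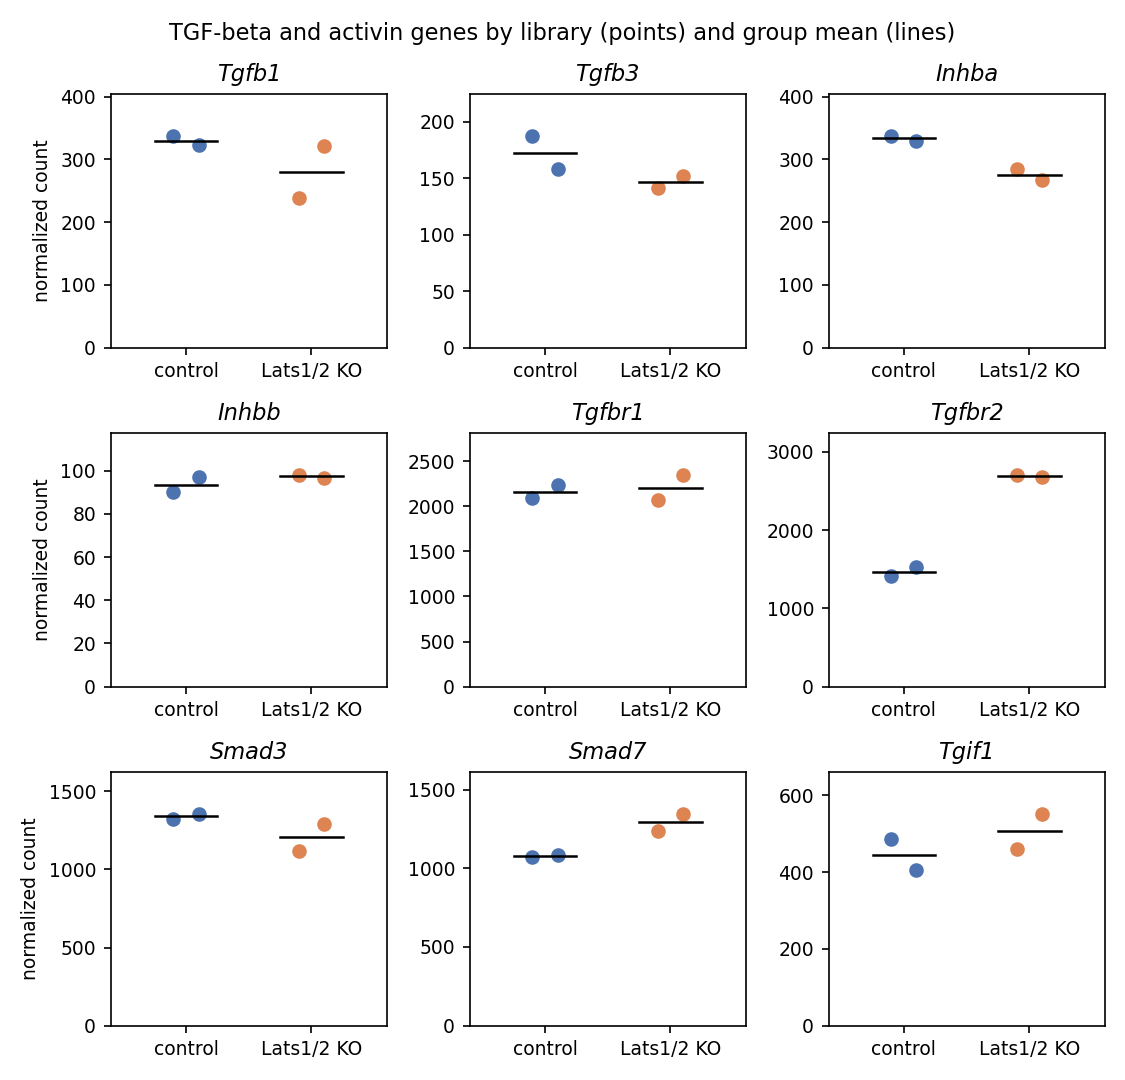
Normalized counts of the 9 genes in each library (points, 2 per group) with group means (lines); every vertical axis starts at 0. Tgfbr2 stands at 2676 and 2704 in the knockouts, above 1408 and 1522 in the controls, while the other 8 genes differ by less.

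Tgfbr2 encodes the type II receptor, which binds TGF-beta ligands and activates the type I receptor. It lies on the minus strand of chromosome 9, from 116084293 to 116175360 of GRCm38. It had 1408 and 1522 normalized counts in the controls, and 2704 and 2676 in the knockouts. Both knockouts stood above both controls, and the gap between the groups was much larger than the gaps within them. The means were 1465 ± 81.1 and 2690 ± 19.8 (SD, n = 2 each), a 1.84-fold rise with a 95% interval of 1.63 to 2.07. On the log2(value + 1) scale the change was 0.88 ± 0.07 (SE), with an adjusted p of 0.00136 by limma. A larger rise was seen in 5.94% of tested genes, and 320 had a smaller adjusted p. The authors' deposited table, which called 23.0% of the genes for which it gave an adjusted p, listed Tgfbr2 with a log2 fold change of 0.84 and an adjusted p of 5.55e-14. Tgfbr2 passed in each of 11 alternative analyses, with log2 changes of 0.82 to 0.93.

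Because Tgfbr2 was the 1 gene of the 9 that passed the main test, the 250 bases before its RefSeq start site are shown. They lie at chr9:116175364-116175613 of GRCm38.p6, minus strand, 5′ to 3′, and capitals mark a match to the SMAD motif CAGAC.
Tgfbr2: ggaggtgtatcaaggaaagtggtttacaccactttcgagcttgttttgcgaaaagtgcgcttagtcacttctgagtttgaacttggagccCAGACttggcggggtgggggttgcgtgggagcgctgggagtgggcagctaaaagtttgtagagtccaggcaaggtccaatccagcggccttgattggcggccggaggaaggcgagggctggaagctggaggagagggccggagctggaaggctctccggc

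This window is 58.4% G and C. Both strands were searched for CAGAC, for the TEAD motif GGAATG and for the AP-1 motif TGANTCA, and the match shown overlaps no other. The SMAD match begins 160 bases before the start, and the TEAD and AP-1 letters were not in this window. Of 32851 RefSeq promoter windows of this length, 42.2% hold CAGAC, 12.6% hold GGAATG and 6.75% hold TGANTCA. The RefSeq promoter set used here held 12 windows for 7 of the 9 genes, and none for Tgfb3 or Smad7. In them CAGAC matched 5 windows, of Tgfbr1, Tgfbr2 and Tgif1, and GGAATG and TGANTCA matched 0. A match of a few letters describes the sequence and does not show that a factor binds there.

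Tjp1 and Smim15 were the genes whose values followed Tgfbr2 most closely over the 4 libraries. Likeness was the Euclidean distance between log2 values centred on the control mean, among 8040 other named genes at or above the median level. Tjp1, a tight junction scaffold, was nearest at a distance of 0.02 log2 units, with 3399 and 3616 normalized counts in controls and 6481 and 6442 in knockouts. Smim15 followed at 0.04, with 1303 and 1401 normalized counts in controls and 2477 and 2527 in knockouts. With 4 libraries in 2 groups, such closeness mostly restates a change of similar size, here 0.88 and 0.89 on the log2 scale.

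Tgfbr1 encodes the type I receptor, the kinase that phosphorylates SMAD2 and SMAD3 (chromosome 4, 47353222 to 47414931, plus strand). It had 2087 and 2238 normalized counts in the controls and 2067 and 2348 in the knockouts. The knockout values lay on either side of the controls. The log2 change was 0.03 ± 0.09 (SE), with 95% fold limits of 0.877 and 1.18 (adjusted p = 0.837 by limma). The receptor that binds ligand rose while the difference of its signalling partner was within the spread between libraries.

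The ratio of the receptor transcripts restates the rise of Tgfbr2 over Tgfbr1 within each library. Per kilobase of exon, the Tgfbr1 level was 1.86 and 1.84 times that of Tgfbr2 in the controls, and 0.958 and 1.10 times in the knockouts. The log2 ratio was 0.85 lower in the knockouts (difference -0.85), and the groups did not overlap. An exact two-sided permutation test gave p = 0.333, which is the smallest value that 2 against 2 samples allow. The difference was -0.75 to -0.95 when 1 library was left out.

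**Figure D2:**
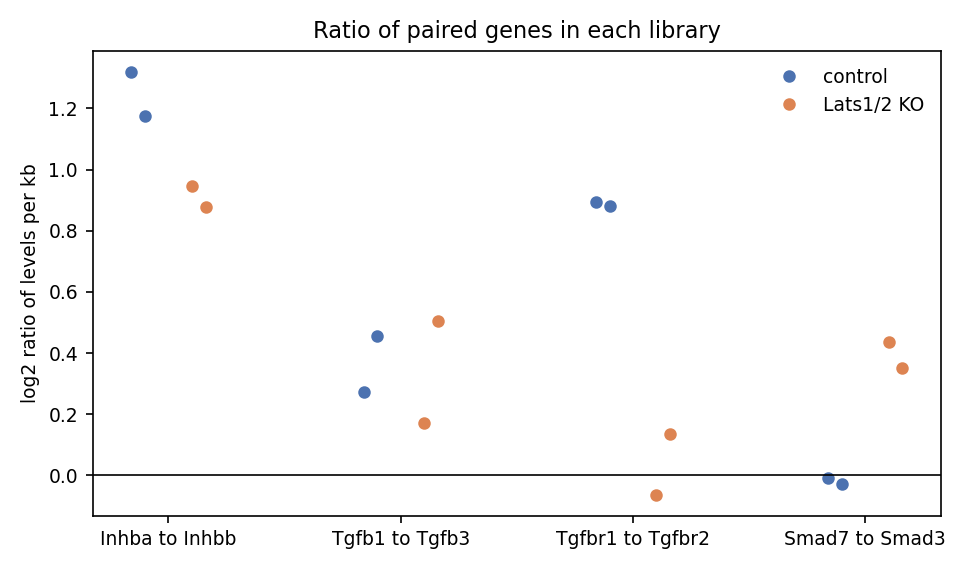
Log2 ratio of the levels per kilobase of exon for 4 pairs of genes, with 1 point per library. The Tgfbr1 to Tgfbr2 ratio separates the groups most, with controls at 0.88 and 0.89 and knockouts at -0.06 and 0.14, and Tgfb1 to Tgfb3 overlaps.

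The ligand genes were lower on average or close to the control level, and none passed. Tgfb1 encodes the ligand made widely by immune, vessel and connective tissue cells (chromosome 7, 25687002 to 25705077, plus strand). It had 337 and 322 normalized counts in the controls and 238 and 321 in the knockouts. The knockout libraries differed from each other by 29.7% of their mean, and the second lay just below the controls. The log2 change was -0.26 ± 0.16 (SE), with an adjusted p of 0.299 by limma. Without Lats1/2 KO replicate 1 it was -0.04, and without Lats1/2 KO replicate 2 it was -0.47.

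Tgfb3, which encodes another TGF-beta ligand, had 187 and 158 normalized counts in the controls and 142 and 152 in the knockouts (chromosome 12, 86056745 to 86079041, minus strand). The controls differed from each other by 17.2% of their mean, and the groups did not overlap, as for 68.3% of tested genes. Its log2 change was -0.23 ± 0.15 (SE), with an adjusted p of 0.310 by limma. It was -0.10 without control replicate 1 and -0.35 without control replicate 2. Other annotated genes overlap 420 of its exonic bases on the other strand, and without a stated strand setting their reads cannot be told apart. The log2 ratio of Tgfb1 to Tgfb3 differed by -0.03 between the groups, which overlapped (exact two-sided permutation p = 1).

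Inhba encodes the inhibin beta A chain, which forms activin A (chromosome 13, 16011851 to 16031621, plus strand). It had 337 and 329 normalized counts in the controls and 284 and 267 in the knockouts. Both knockouts lay below both controls, with small gaps within each group. The log2 change was -0.28 ± 0.10 (SE), a fold interval of 0.690 to 0.989. Its unadjusted p of 0.0408 became 0.106 after adjustment over all genes by limma. An unadjusted p under 0.05 was given by limma for 6776 of the 16415 tested genes.

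Inhbb, for the beta B chain of activin B (chromosome 1, 119415465 to 119422248, minus strand), was the least abundant of the 9, with 85 to 107 reads per library. It had 90.1 and 97.2 normalized counts in the controls and 98.1 and 96.7 in the knockouts, so the groups overlapped. Its log2 change was 0.06, with 95% fold limits of 0.789 and 1.37 (adjusted p = 0.816 by limma). The log2 ratio of Inhba to Inhbb was lower in both knockouts than in both controls, by -0.33 on average (exact two-sided permutation p = 0.333, the smallest possible).

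Smad3 encodes the transcription factor phosphorylated by the TGF-beta and activin receptors (chromosome 9, 63646767 to 63757994, minus strand). It had 1325 and 1356 normalized counts in the controls and 1120 and 1293 in the knockouts. Both knockouts were lower, though the second lay close to the controls. The log2 change was -0.15 ± 0.09 (SE), with an adjusted p of 0.253 by limma. Without Lats1/2 KO replicate 1 it was -0.05, and with Lats1/2 KO replicate 2 left out instead it was -0.26.

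Smad7 encodes the inhibitory SMAD, a feedback regulator that the pathway induces and that blocks the type I receptor (chromosome 18, 75367529 to 75395935, plus strand). It had 1073 and 1085 normalized counts in the controls and 1238 and 1345 in the knockouts. Both knockouts stood above both controls, which differed from each other by 1.04% of their mean. The log2 change was 0.26 ± 0.07 (SE), a fold interval of 1.05 to 1.36. Its adjusted p of 0.0542 by limma just missed the threshold, and it was 0.0467 by edgeR on recovered reads, which called 27.8% of genes. By DESeq2 on the same reads, which called 23.6% of genes, the adjusted p was 0.125.

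The log2 ratio of Smad7 to Smad3 was 0.41 higher in the knockouts, and the groups did not overlap (exact two-sided permutation p = 0.333, the smallest possible). Per kilobase of exon, Smad7 was 0.993 and 0.981 times Smad3 in the controls and 1.35 and 1.28 times in the knockouts.

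Tgif1 encodes a homeodomain corepressor that binds SMADs (chromosome 17, 70844205 to 70853546, minus strand). It had 486 and 405 normalized counts in the controls and 461 and 552 in the knockouts. The groups overlapped, and the libraries within each group differed by more than the group means did, which were 446 and 506. The log2 change was 0.18 ± 0.14 (SE), with an adjusted p of 0.372 by limma. It lay between 0.05 and 0.32 with 1 library left out.

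**Figure D3:**
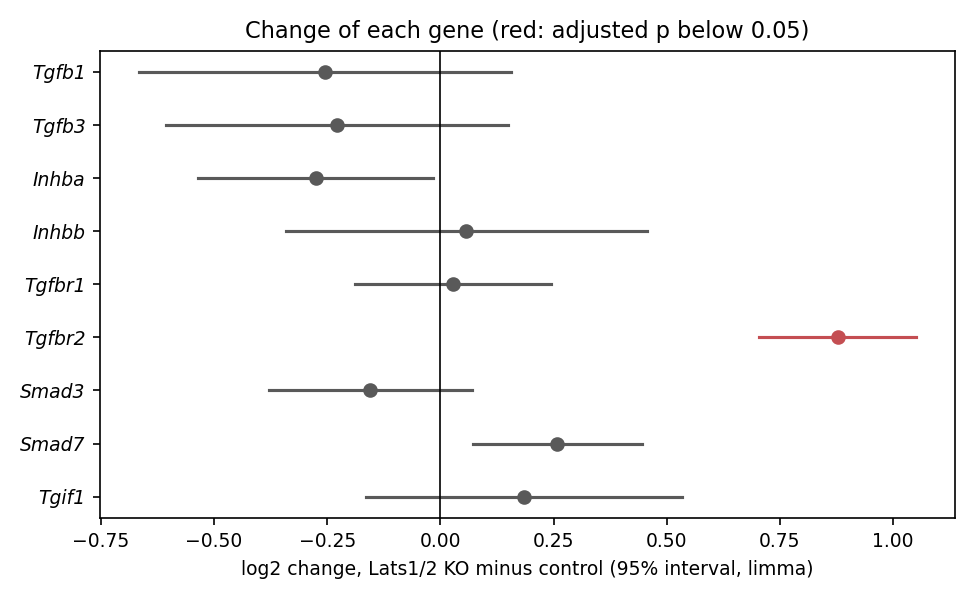
Log2 change of each gene, Lats1/2 KO minus control, as points with 95% intervals from limma on log2(normalized count + 1). Tgfbr2 (0.88, red) is the 1 gene past the threshold. The intervals of Smad7 (0.07 to 0.44) and Inhba (-0.53 to -0.02) do not include 0 but their adjusted p did not pass. By limma 6776 of the 16415 tested genes had an unadjusted p under 0.05, and so an interval without 0.

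Levels of different genes were compared per kilobase of annotated exon. In the controls the order was Tgfbr1 at 331 ± 16.4 normalized counts per kb, Smad3 at 242 ± 3.91, Smad7 at 239 ± 1.76 and Tgfbr2 at 179 ± 9.91 (SD, n = 2 each). Smad3 and Smad7 overlapped. Then came Tgif1 at 79.2 ± 10.3, Tgfb1 at 65.4 ± 2.12, Inhba at 52.2 ± 0.915, Tgfb3 at 51.0 ± 6.19 and Inhbb at 22.0 ± 1.18 (SD, n = 2 each). Inhba lay within the range of Tgfb3, and the receptors and SMADs were all above the ligands. In the knockouts Tgfbr2 stood at 329 ± 2.41 per kb, within the range of Tgfbr1 at 338 ± 30.5 (SD, n = 2 each) and above Smad7 at 286 ± 16.8 and Smad3 at 218 ± 22.0. Inhbb stayed lowest, at 22.9 ± 0.231 per kb (SD, n = 2).

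**Figure D4:**
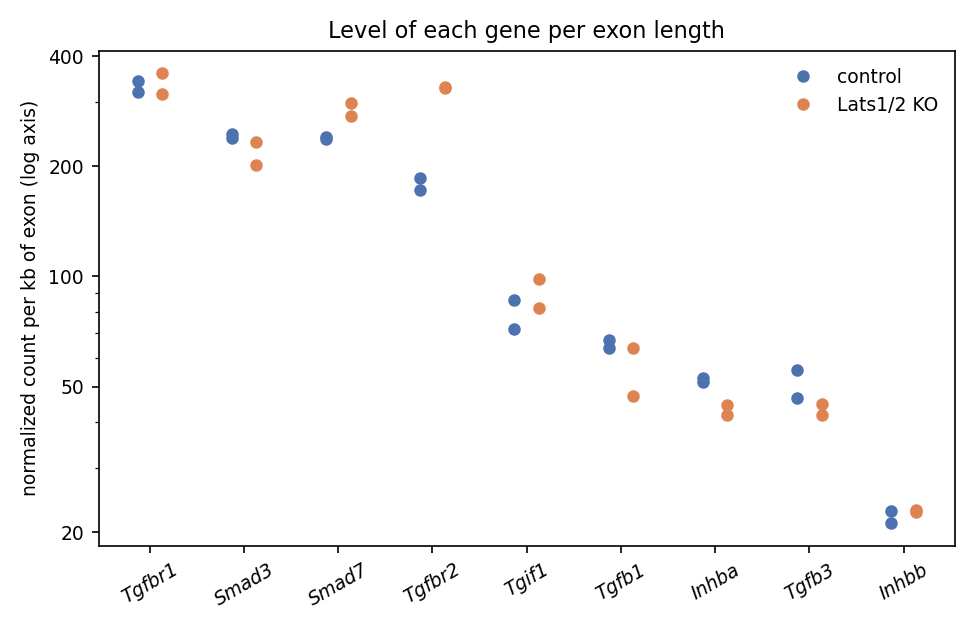
Normalized count per kilobase of exon (log axis) in each library for the 9 genes, ordered by control mean. Tgfbr2 is below Tgfbr1, Smad3 and Smad7 in the controls (179 per kb) and reaches the level of Tgfbr1 in the knockouts (329 and 338 per kb).

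The rest of the pathway was followed in 62 other genes, of which 58 were analysed and 52 tested. Of these 52, 12 rose, 6 fell and 34 did not pass. Over all tested genes 15.2% were called higher and 12.3% lower, so the share of the 52 that fell is near this background. The share that rose is above it, in lists chosen with earlier results of these data known, and this difference was not tested. The median log2 change of the 52 was -0.12. Of 11 tested intracellular inhibitors and ubiquitin ligases, 5 rose, 0 fell and 6 did not pass (median log2 change 0.26), beside 15.2% called higher and 12.3% lower over all tested genes. Of 4 tested extracellular and membrane inhibitors, 0 rose, 2 fell and 2 did not pass (median log2 change -0.58), a count too small to set against that background.

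Pmepa1, a TGF-beta-induced membrane protein that sequesters receptor-activated SMADs, had 1001 and 1196 normalized counts in controls and 1748 and 2179 in knockouts. It rose 1.78-fold (log2 change 0.83 ± 0.14 SE, adjusted p = 0.0109 by limma). Trim33, a nuclear ubiquitin ligase for SMAD4, rose 1.33-fold, from 1656 and 1785 to 2181 and 2385. Ski, a SMAD corepressor, rose 1.24-fold, from 2160 and 2152 to 2629 and 2726. The other risers, Nedd4l and Smurf1, both ubiquitin ligases, were chosen after their values were seen. Nedd4l rose 1.27-fold, and Smurf1 rose from 739 and 746 to 901 and 880 (adjusted p = 0.0472 by limma). The Nedd4l call was lost in 3 of 11 alternatives, those of Trim33 and Ski in 2 each and that of Pmepa1 in 1. The Smurf1 call was lost in 7 of 11 alternatives, among them DESeq2 (adjusted p = 0.154) and each fit without a library. Skil, a relative of Ski, had 4164 and 4520 in controls and 4255 and 4417 in knockouts, where the groups overlapped.

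Fst encodes follistatin, which binds and neutralizes activins, and Bambi a decoy receptor for the TGF-beta family. Fst fell 1.83-fold, with 180 and 264 normalized counts in controls and 130 and 108 in knockouts (log2 change -0.88 ± 0.22 SE, adjusted p = 0.0392 by limma). Bambi fell 1.72-fold, from 204 and 264 to 130 and 138 (log2 change -0.78 ± 0.17 SE, adjusted p = 0.0233 by limma). For both genes the control libraries differed more than the knockouts. Without control replicate 2 each log2 change was -0.60, with adjusted p of 0.111 for Fst and 0.0744 for Bambi by limma. Both calls were also lost without either Lats1/2 KO library, at adjusted p of 0.0880 to 0.166.

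Of 12 tested genes for the latent complex and ligand activation, 3 rose, 1 fell and 8 did not pass (median log2 change -0.22). These 4 calls in 12 are near the 27.5% called over all tested genes. The risers included both chains of the integrin that activates latent TGF-beta on epithelium. Itgav, the alpha V chain, rose 1.42-fold, from 2924 and 3231 normalized counts to 4102 and 4617, a call lost in 1 of 11 alternatives. Itgb6, the beta 6 chain, rose 1.73-fold, from 2073 and 1324 to 2874 and 2845. Its log2 change of 0.79 was 1.11 without control replicate 1 and 0.46 without control replicate 2. The Itgb6 call was lost without either Lats1/2 KO library (adjusted p = 0.144 and 0.145 by limma) and with no filter (adjusted p = 0.0946). Furin, the protease that cleaves TGF-beta precursors, rose 1.22-fold, a call lost in 4 of 11 alternatives. Ltbp1, a latent TGF-beta binding protein chosen after its values were seen, was the 1 that fell, 1.31-fold, from 388 and 442 to 312 and 319 (adjusted p = 0.0485 by limma). Its call was lost in 6 of 11 alternatives, among them DESeq2 (adjusted p = 0.0954).

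Among 3 tested ligands outside the 9, 1 rose, 0 fell and 2 did not pass. These are too few to set against the 15.2% called higher and 12.3% called lower over all tested genes. Inha, the inhibin alpha chain that pairs with beta chains to oppose activin, had 97.3 and 94.9 normalized counts in controls and 144 and 150 in knockouts. It rose 1.53-fold (adjusted p = 0.0316 by limma). The call was lost with DESeq2 (adjusted p = 0.108) and with any 1 library left out (adjusted p = 0.0815 to 0.143 by limma). Tgfb2 had 102 and 114 in controls and 125 and 219 in knockouts (log2 change 0.61 ± 0.28 SE, adjusted p = 0.166 by limma). For Tgfb2 the knockout libraries differed more than the groups did at their nearest.

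None of 7 other tested receptors and co-receptors passed (median log2 change -0.14). Over all tested genes 27.5% were called, and 7 genes are too few to set against that share. Acvr1b, an activin type I receptor, stood at -0.01 on the log2 change scale, and Acvr2a, a type II receptor, at 0.17. The co-receptor Tgfbr3 (betaglycan) had a log2 change of -0.60 ± 0.18 (SE), with an adjusted p of 0.0571 by limma. By an unadjusted p under 0.05, limma gave 6776 of the 16415 tested genes.

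Of 3 tested SMADs and partners, Smad2, the partner of Smad3, rose and 2 did not pass. These 3 are too few to set against the 15.2% called higher and 12.3% called lower over all tested genes. Smad2 had 1030 and 1109 normalized counts in controls and 1449 and 1433 in knockouts, a 1.35-fold rise (adjusted p = 0.0113 by limma). The Smad2 call was lost in 2 of 11 alternatives. Smad4, the shared partner, did not pass, at -0.17 on the log2 scale (adjusted p = 0.278 by limma).

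Of 12 tested response genes 2 rose, 3 fell and 7 did not pass (median log2 change -0.15). The 2 that rose are near the 15.2% called higher over all tested genes. The 3 that fell stand beside 12.3% called lower, a count too small to set against that share. Ctgf, a matricellular protein that both TGF-beta and YAP are known to induce, had 145 and 208 normalized counts in controls and 661 and 990 in knockouts. Its log2 change was 2.21 ± 0.25 (SE), the largest among the pathway genes tested. Angptl4, a lipase inhibitor, had 606 and 554 in controls and 1146 and 1077 in knockouts, a 1.92-fold rise. Tgfbi, a matrix protein named for its induction by TGF-beta, fell 1.27-fold, from 3191 and 3223 to 2580 and 2486. Cdkn2b, a cell cycle inhibitor, and Snai2, a repressor of epithelial genes, also fell, 1.39-fold and 1.63-fold, and were chosen after their values were seen. The Cdkn2b call was lost in 3 of 11 alternatives, that of Snai2 in 6 and that of Tgfbi in 2.

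**Figure D5:**
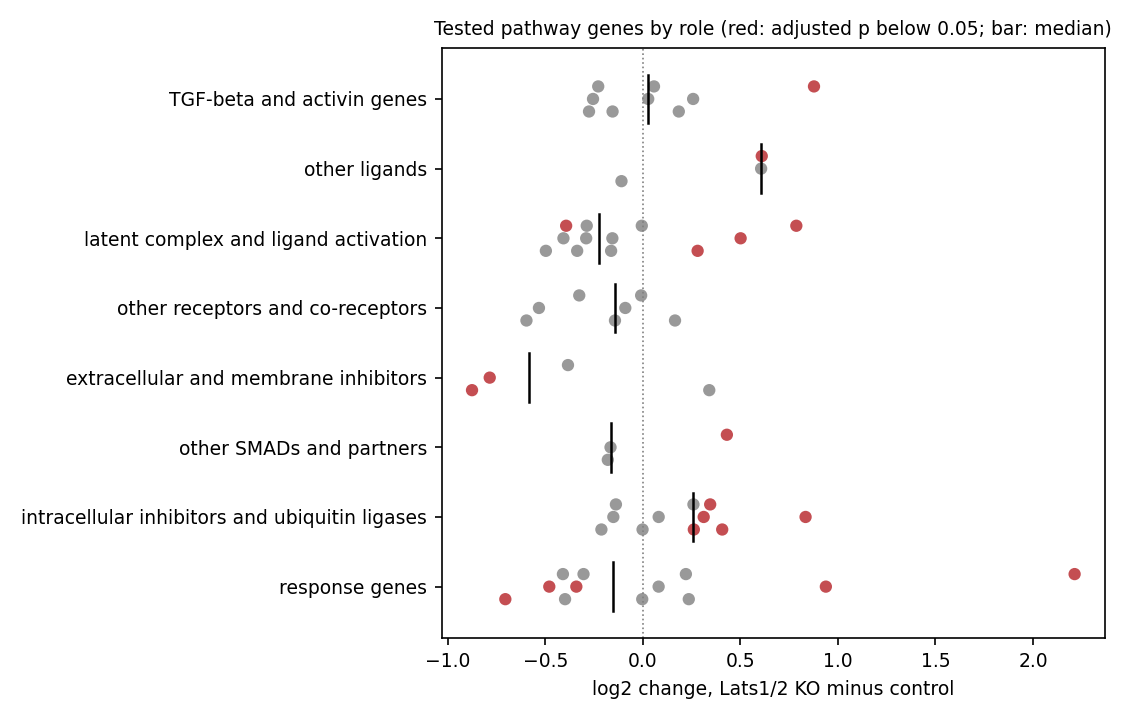
Log2 change, Lats1/2 KO minus control, of each tested pathway gene (points; red where the adjusted p is below 0.05) by role, with the median of each role as a bar. Of 4 tested extracellular and membrane inhibitors the 2 called lie below 0, a count too small to set against all tested genes. Of 11 tested intracellular inhibitors and ubiquitin ligases the 5 called lie above 0. Over all tested genes 15.2% were called higher and 12.3% lower.

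Each of the 18 calls among these other genes kept its direction in all 11 alternatives. With control replicate 1 left out 15 of the 18 passed, and with control replicate 2 left out 11 passed. With no filter 10 of them passed, and with DESeq2 on all 4 libraries 14. With either Lats1/2 KO library left out, fewer of the 18 passed than with either control left out. Calls over all tested genes were also fewer there, so this loss was not particular to the 18. Exons of Ctgf, Furin, Itgav, Fst, Nedd4l, Tgfb2 and Acvr2a overlap genes on the other strand, and those of Tgfbr3 a gene on the same strand. Reads of the overlapping genes cannot be told apart. Ctgf and Angptl4 passed in all 11.

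Macrophage and fibroblast markers were called lower more often than all tested genes, of which 12.3% were called lower and 15.2% higher. The single calls among endothelial, lymphocyte, and neuron and glia markers are too few to set against these shares. Of 7 macrophage markers 5 fell, 0 rose and 2 did not pass. Their summed level was 15328 to 15478 normalized counts in controls and 8611 to 11394 in knockouts. The 2 that did not pass summed to 8525 and 8532 in controls, and to 5602 and 8224 in knockouts. Of 7 fibroblast markers 4 fell and 3 did not pass, with sums of 21389 to 23606 and 16847 to 18647. The 3 that did not pass summed to 8245 to 9408 in controls and 6728 to 7914 in knockouts. Of 6 endothelial markers 1 fell, Pecam1, with sums of 4091 to 4856 and 3523 to 3802. Without Pecam1 these sums were 2974 to 3559 and 2696 to 2912. Of 7 neuron and glia markers 1 fell (S100b, also made by other cells), with sums of 5440 to 6448 and 3142 to 3210. Without S100b these sums were 3200 to 4413 and 2741 to 2911.

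Of 5 tested lymphocyte markers 1 fell, Cd4, from 278 and 290 normalized counts to 113 and 121. It carried the fall of the lymphocyte sum, which was 367 to 368 in controls and 189 to 232 in knockouts. Without Cd4 the other markers summed to 77.7 to 89.0 in controls and 75.9 to 111 in knockouts, and 3 of the 5 tested had positive log2 changes (median 0.16).

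Of 7 smooth muscle markers 0 passed, with sums of 25342 to 27221 and 20536 to 28363. Of 5 tested erythroid markers 0 passed, with sums of 3166 to 5504 and 2963 to 5111. Of 8 epithelial markers 3 rose, the keratins Krt8, Krt18 and Krt20, and 5 did not pass. The epithelial sums were 132278 to 143177 in controls and 187560 to 189493 in knockouts. This rise rests on the keratins, since the other 5 markers summed to 100289 to 111117 in controls and 104902 to 107120 in knockouts. The epithelial adhesion genes Epcam and Cdh1 had log2 changes of -0.04 and 0.13, and Vil1, whose promoter drives the Cre, 0.06. Among all these markers 1 library was at 0, for Hba-a2 in Lats1/2 KO replicate 1. The part of these shifts in the values of Tgfbr2, Tgfb1 and the other pathway genes was not tested.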

How the data were processed

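RNA-seq libraries of whole small intestine from 2 control and 2 Lats1/2 KO samples were analysed. Per the submitters' processing notes, STAR, featureCounts, DESeq2 and the build GRCm38 were used by the authors, with versions and strand setting not given in the sources used here. Values in the authors' deposited table are, per the file headers, normalized counts (a signal: reads over a size factor of the library). Each was a whole multiple of 1 read for 100% of values within 0.001 reads, giving 25135964 to 32361940 reads per library. The authors also deposited a log2 fold change and an adjusted p-value per gene. Columns named the group and not the sample, so libraries are numbered in column order as names only. The labels name no batch.

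A limma model (version 3.58.1, R 4.3.3) whose prior variance followed the mean was fitted on log2(normalized count + 1) for 16415 genes with at least 10 in at least 2 libraries. It had 2 residual and 3.53 prior degrees of freedom. Fold changes of low genes are understated on this scale. P-values were adjusted by Benjamini-Hochberg over all tested genes with a threshold of 0.05. Alternatives were pseudocounts of 0.5 and 5, no filter, a filter of 50, scaling by total reads, each library left out, and edgeR 4.0.16 (quasi-likelihood, TMM) and DESeq2 1.42.0 on the recovered reads. They called 4568 and 3877 genes, against 4508 by limma. Each tool was tested on simulated data. The table held no gene lengths, so exon lengths and positions came from the GENCODE M21 annotation of GRCm38, whose build is that of the notes, and promoters from RefSeq (GRCm38.p6). The 9 genes and the lists were chosen with earlier results of these data known. Genes named beside the 9 were up to 3 per role past the threshold with the smallest adjusted p, and the genes most like Tgfbr2, of which 1 that the rule names is not reported here; other genes of the lists that the text names were chosen after their values were seen. Overlapping genes were not separated.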

Additional observations from a re-analysis of the deposited data

How the results depend on the processing

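Tgfbr2 passed in all 11 alternatives. With the filter of 50, with edgeR and with scaling by total reads, 2 of the 9 genes rose, since Smad7 passed as well (adjusted p 0.0454 to 0.0488); over all its alternatives Smad7 ranged from 0.0454 to 0.271. With 1 library left out, the log2 change of Tgfbr1 ranged from -0.0642 to 0.120 and turned sign without control replicate 1 (-0.0225) and without Lats1/2 KO replicate 2 (-0.0642). That of Lats2 ranged from -0.141 to 0.0758 and turned sign without control replicate 2 (0.00258) and without Lats1/2 KO replicate 2 (0.0758). The other 6 genes kept their direction and did not pass in any alternative.

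Counts of calls moved more. With 1 library left out, the group with 1 sample is assumed to vary like the other. Over all genes 908 to 2171 then rose and 864 to 1612 fell, and with no filter 1318 fell. With 1 library left out, 0 to 1 other ligands rose, 0 to 3 latent complex and activation genes rose and 0 to 1 fell, and 0 to 2 extracellular inhibitors fell. In the same fits 0 to 1 other SMADs rose and 0 to 1 fell, 0 to 4 intracellular inhibitors rose and 0 to 1 fell, and 0 to 3 response genes fell. With no filter, 1 latent complex and activation gene rose and 0 fell, 1 extracellular inhibitor fell, 3 intracellular inhibitors rose and 1 response gene fell. With DESeq2, 0 other ligands rose and 0 latent complex genes fell. In that list 0 fell with scaling by total reads and 2 with the filter of 50. The cause of these moves was not tested, other than that the fits without a library have fewer samples and the fit with no filter adjusts over 29011 genes. Scaling moved the median of all genes by less than 0.1 on the log2 scale.

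No paired analysis was possible because the columns carry no replicate number of the labels. Inhbb, at 85 to 107 reads per library, had the fewest reads of the 9, and its interval reaches a 1.37-fold rise.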

Other observations

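Several ligands of the family, the inhibitor Lefty1 and the co-receptor Tdgf1 stood below the level needed for testing. Gdf3, a TGF-beta family ligand of early embryos, had 7.25 and 4.57 normalized counts in the controls and 1.85 and 0 in the knockouts. Nodal, which patterns the embryo, had 5.18 and 5.71 in the controls and 2.78 and 0 in the knockouts. Inhbe, an inhibin beta chain best known from liver, had 4.14 and 5.71 in the controls and 2.78 and 2.71 in the knockouts. Lefty1, an extracellular inhibitor of Nodal, had 10.4 and 9.14 in the controls and 7.40 and 4.52 in the knockouts. Mstn and Tdgf1 did not exceed 3.11 in any library. These are levels of a few reads, and no test was made.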
